A study of Mus musculus with 15 samples.

Results

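The phagocyte NADPH oxidase was followed through the transcripts of 5 of its subunits, Cybb, Cyba, Ncf1, Ncf4 and Rac2, taken by gene symbol from a count table of 53278 genes. Cortex RNA was sequenced from 15 male C57BL/6J mice of 10 to 20 weeks, with 1 library for each mouse and 5 mice in each group. Control mice ate control food. Mice of the depletion group ate food with PLX3397 for 9 days, an oral inhibitor of CSF1R, the receptor whose signal microglia need to survive. In the repopulation group the same 9 days on PLX3397 were followed by a return to control food, also of 9 days, during which new microglia can arise. The labels name no transgene, deletion or other agent in any group, and the drug in the food reaches the whole animal, not the brain alone. The study's title asks how microglia act on the reactivity of brain vessels.

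The oxidase of phagocytes moves electrons from NADPH across a membrane onto oxygen, which yields superoxide. Its catalytic subunit gp91phox, encoded by Cybb, sits in the membrane with p22phox, encoded by Cyba, and stays silent until the cytosolic subunits such as p47phox (Ncf1) and p40phox (Ncf4) join it together with the small GTPase Rac, of which Rac2 is the form of blood-derived cells. In the brain, microglia are the cells best known for this enzyme, and p22phox also serves other oxidases of the NOX family outside phagocytes.

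Libraries held 23413551 to 48617851 counts, so the least abundant subunits rested on few reads. Levels below are in CPM, read counts scaled to a common library size after TMM normalization. Cortical neuron genes, 6 in all, summed to 4123 to 5048 CPM per library over the 15 libraries. Csf1r, the receptor that the drug inhibits, stood at 79.4 to 89.3 CPM in control, 0.129 to 0.427 CPM in depletion and 98.9 to 113 CPM in repopulation libraries, so every library went with its label. The median of 18 homeostatic microglial genes stood at 0.747% ± 0.415 of the control mean in depletion and at 105% ± 5.03 in repopulation (SD, n = 5 each). Bulk RNA does not tell fewer microglia from less RNA in each. Genes of neutrophils, monocytes and lymphocytes were near 0. The 11 neutrophil genes summed to 0.204 to 1.10 CPM in control, 0.174 to 0.356 CPM in depletion and 0.107 to 0.408 CPM in repopulation, with Ly6g and Elane at 0 counts in both PLX3397 groups. The 5 monocyte genes summed to 0.293 to 0.720, 0.0860 to 0.212 and 0.178 to 0.779 CPM, and the 9 lymphocyte genes to 0.327 to 0.717, 0.344 to 0.649 and 0.472 to 0.882 CPM, in the same order. The 8 genes of border macrophages, which line vessels and meninges, summed to 30.4 to 39.9 CPM in control, 4.53 to 5.70 CPM in depletion and 32.4 to 38.5 CPM in repopulation and so moved with the subunits, whose share from either cell type was not tested.

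RefSeq start-site sequences on GRCm38.p6 were held for 3 of the 5 subunit genes and are shown because these genes fell together in depletion but to different extents. Each line gives the 250 bases before the annotated start, 5′ to 3′ on the gene's strand. Capitals mark matches to the PU box GAGGAA (a motif of the myeloid factor PU.1), the CCAAT box CCAAT and the GC box GGGCGG. Only these exact letters were searched, on both strands, so other forms of each site are not marked.
Cybb, chrX:9469325-9469574, minus strand: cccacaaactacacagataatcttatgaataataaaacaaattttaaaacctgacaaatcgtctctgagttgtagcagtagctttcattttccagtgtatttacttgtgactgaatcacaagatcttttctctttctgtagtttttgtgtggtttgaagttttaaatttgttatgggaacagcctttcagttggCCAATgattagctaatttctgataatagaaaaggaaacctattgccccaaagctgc
Cyba, chr8:122432941-122433190, minus strand: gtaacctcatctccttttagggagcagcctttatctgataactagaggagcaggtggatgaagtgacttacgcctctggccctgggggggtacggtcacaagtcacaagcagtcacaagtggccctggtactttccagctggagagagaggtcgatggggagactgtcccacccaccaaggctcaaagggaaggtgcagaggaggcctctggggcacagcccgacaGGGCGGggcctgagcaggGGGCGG
Ncf1, chr5:134229626-134229875, minus strand: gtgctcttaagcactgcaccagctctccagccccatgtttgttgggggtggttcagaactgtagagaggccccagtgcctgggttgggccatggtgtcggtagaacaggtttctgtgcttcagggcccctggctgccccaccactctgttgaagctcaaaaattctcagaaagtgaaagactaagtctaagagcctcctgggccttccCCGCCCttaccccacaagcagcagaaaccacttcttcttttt

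In windows of 300 bases, which also take the 50 bases after the start, Cybb held 1 CCAAT box at positions -56 to -52 and 1 PU box on the opposite strand at 10 to 15 (tgttttcatTTCCTCatcagaaga), where position 1 is the annotated start. Cyba held 2 GC boxes, at -24 to -19 and -6 to -1, and Ncf1 held 1 on the opposite strand at -42 to -37. None of these matches overlapped another. Of 32851 start-site windows of that length, 28.3% held a PU box, 37.4% a CCAAT box and 35.7% a GC box, so each match is a common one. The Cybb window was 35.3% G and C with 1 CpG, against medians of 52.7% and 7 over all windows. The Cyba window was 60.7% G and C with 9 CpG, and that of Ncf1 was 54% with 3. No link between these sequences and the amount left in depletion was tested. The letters alone do not show binding.

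All 5 subunit transcripts fell in depletion, to between 2.06% and 36.5% of the control mean, and none was called different from control after repopulation (edgeR quasi-likelihood test, Benjamini-Hochberg adjustment over 18369 genes). For scale, 8.35% of all tested genes were lower in depletion than in control and 8.19% higher. Once trends with gene length and GC content were removed, 5 subunits were again lower, beside 6.3% of all genes lower and 4.74% higher. All 5 passed the filter on low counts. Cyba reached its level, 0.348 CPM, in all 15 libraries, while Cybb, Ncf1, Ncf4 and Rac2 reached it in every control and repopulation library and in 0 depletion libraries, and so passed through the groups where they were high.

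**Figure D1:**
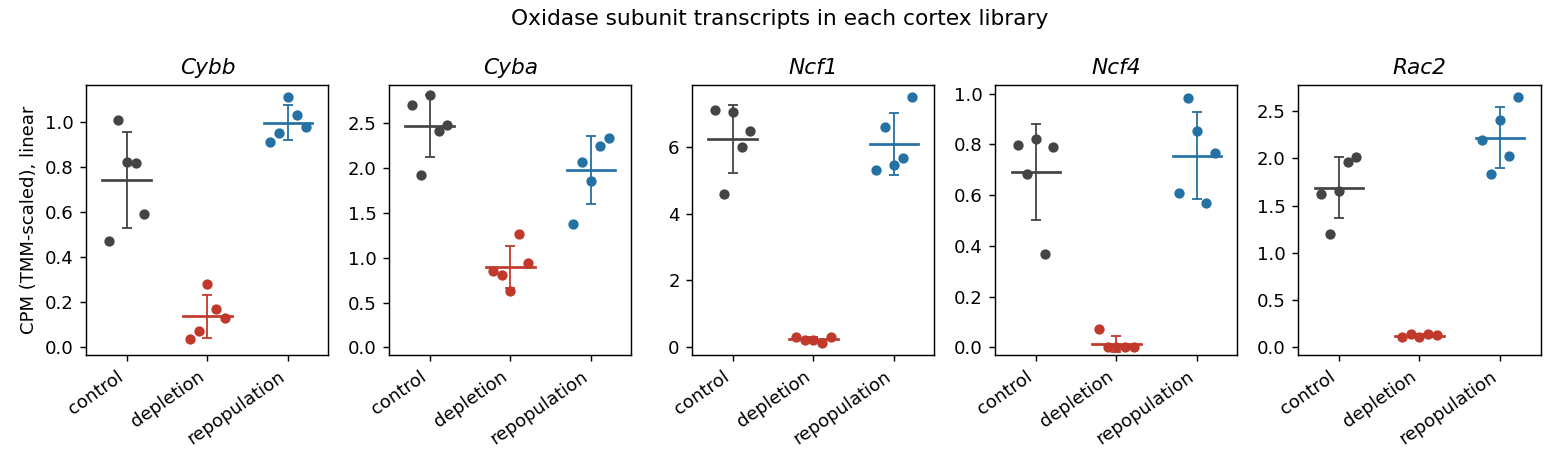
Level of each subunit transcript (CPM, linear axis starting at 0) in 5 control, 5 depletion and 5 repopulation libraries, 1 point per mouse, with the group mean (horizontal line) and SD (bars). For each of the 5 genes every depletion point lies below every control and repopulation point, while control and repopulation points overlap. Separation of this kind was not counted over all tested genes.

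Cybb, the catalytic gp91phox, lies on the minus strand of chromosome X from 9435252 to 9487771 (GRCm38), a protein-coding gene that overlaps no other. The RefSeq start used above lies inside this span, so the GENCODE gene also has exons further upstream. Its level was 0.471, 1.01, 0.823, 0.817 and 0.591 CPM in control mice 1 to 5, on 15 to 31 reads per library. In depletion mice it was 0.0356, 0.0705, 0.279, 0.171 and 0.129 CPM, on 1 to 8 reads. In repopulation mice it was 0.910, 0.950, 1.11, 1.03 and 0.975 CPM. The highest depletion library stayed below the lowest control, and 2 of 5 repopulation libraries lay above every control. The mean fell from 0.742 ± 0.212 to 0.137 ± 0.0949 CPM (SD, n = 5), a log2 fold change of -2.37 (SE 0.36, edgeR adjusted p = 3.21e-05). Its spread in repopulation (0.0786 CPM) was the smallest of the 3 groups. Repopulation stood at 0.996 CPM, 0.44 above control on the log2 scale (SE 0.26, edgeR adjusted p = 0.212), which was not called, and 2.81 above depletion (SE 0.34, adjusted p = 1.16e-06).

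Cyba, the p22phox partner that stabilises gp91phox, lies on chromosome 8 from 122424776 to 122432930, minus strand, and shares no exon base with another gene. Control mice 1 to 5 had 2.70, 1.92, 2.81, 2.41 and 2.48 CPM. Depletion mice had 0.854, 0.811, 0.627, 1.26 and 0.946 CPM, on 18 to 37 reads. Repopulation mice had 1.38, 2.07, 1.85, 2.24 and 2.33 CPM. Depletion lay wholly below control, and repopulation reached into the control range, with mouse 1 of that group just above the highest depletion library. Depletion changed it by -1.45 on the log2 scale (SE 0.19, edgeR adjusted p = 3.52e-06), and the difference of repopulation from control, -0.32, was not called (SE 0.17, adjusted p = 0.161). Against depletion, repopulation was higher by 1.13 on the log2 scale (SE 0.19, edgeR adjusted p = 0.000164).

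Ncf1, the p47phox organiser that carries the cytosolic subunits to the membrane, lies on chromosome 5 from 134220053 to 134229625, minus strand. It shares 408 exon bases with Gtf2ird2 on the other strand, a gene at 18.2 to 20.3 CPM in control and 17.1 to 20.1 CPM in depletion. The part of Gtf2ird2 in the Ncf1 values was not tested, so the Ncf1 reads left in depletion are less certain. Ncf1 was at 7.09, 4.59, 7.03, 6.00 and 6.46 CPM in control mice 1 to 5. It was at 0.320, 0.212, 0.209, 0.137 and 0.301 CPM in depletion, on 4 to 9 reads. It was at 5.29, 6.58, 5.45, 5.65 and 7.48 CPM in repopulation. Depletion lay far below both other groups, which covered nearly the same range. The mean of 6.23 ± 1.02 CPM fell to 0.236 ± 0.0751 CPM and returned to 6.09 ± 0.925 CPM (SD, n = 5 each). On the log2 scale this was -4.72 in depletion (SE 0.20, edgeR adjusted p = 9.2e-16) and -0.04 in repopulation against control (SE 0.12, adjusted p = 0.859).

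Ncf4, the p40phox subunit that binds a phosphoinositide of phagosome membranes, lies on chromosome 15 from 78244801 to 78262580, plus strand, and overlaps no gene. Control mice 1 to 5 had 39, 21, 24, 9 and 20 reads, or 0.799, 0.683, 0.823, 0.368 and 0.788 CPM. Depletion mouse 1 had 2 reads and the other 4 had 0. Repopulation mice had 0.607, 0.984, 0.853, 0.568 and 0.766 CPM, on 16 to 29 reads. The groups on either side of depletion overlapped, and depletion met neither. Pooled over libraries, 2.04% of the control level was left, with an exact interval of 0.244 to 7.54% that covers counting error only. The fit gave -5.23 on the log2 scale (SE 0.56, edgeR adjusted p = 1.23e-07). Without depletion mouse 1 the group held 0 reads, at least 25.3-fold lower than control at a floor of 3 counts over the 4 libraries left. Repopulation against control gave 0.11 (SE 0.28, edgeR adjusted p = 0.820).

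Rac2, the haematopoietic Rac GTPase that switches the assembled enzyme on, lies on chromosome 15 from 78559167 to 78572783, minus strand, and overlaps no gene. Control mice 1 to 5 had 1.62, 1.20, 1.65, 1.96 and 2.01 CPM. Depletion mice had 0.107, 0.141, 0.105, 0.137 and 0.129 CPM, on 3 or 4 reads each. Repopulation mice had 2.19, 1.83, 2.41, 2.02 and 2.65 CPM. Depletion was low and even, and 4 of 5 repopulation libraries lay above every control library. Depletion changed Rac2 by -3.72 on the log2 scale (SE 0.26, edgeR adjusted p = 2.11e-11). Repopulation was above control by 0.41 on the log2 scale (SE 0.16, edgeR adjusted p = 0.0635), which missed the threshold. With trends of length and GC removed, where 10.3% of all genes were higher and 12.5% lower, it passed (0.49, adjusted p = 0.0307). It also passed without control mouse 5 (adjusted p = 0.0476) or without repopulation mouse 2 (adjusted p = 0.0484). In repopulation against control 13.9% of all tested genes were higher and 15.2% lower. By edgeR 0 of the 5 subunits were among them, and 1, Rac2, had an unadjusted p under 0.05. DESeq2 also called 0.

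Against depletion, all 5 subunits were higher after repopulation, in a comparison that uses the same depletion libraries and where 7.61% of tested genes were higher and 8.98% lower (6.02% and 7.02% with trends of length and GC removed, where 5 subunits were again higher). The fold was 2.19 for Cyba, 7.03 for Cybb, 17.4 for Rac2 and 25.7 for Ncf1, and for Ncf4 the log2 fold change was 5.34 (edgeR adjusted p = 6.17e-08). The Ncf4 value rests on 2 reads in depletion mouse 1 and was 7.48 without that library, where the group held 0 reads and the fitted value is no bound. Of the amount lost in depletion, repopulation regained 68.7% ± 24.2 for Cyba, 97.6% ± 15.4 for Ncf1, 109% ± 25.4 for Ncf4, 134% ± 20.4 for Rac2 and 142% ± 13 for Cybb (SD, n = 5). The Cyba values, 30.8 to 91.5%, all lay below full return. The Cybb values, 128 to 161%, and the Rac2 values, 109 to 161%, all lay above it. These spreads take the control and depletion means as fixed and leave out their error. Control libraries alone ran from 63.5 to 136% of their mean for Cybb and from 71.3 to 119% for Rac2. In the main fit Cyba, Cybb and Rac2 were not called different from control (edgeR adjusted p = 0.161, 0.212 and 0.0635).

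**Figure D2:**
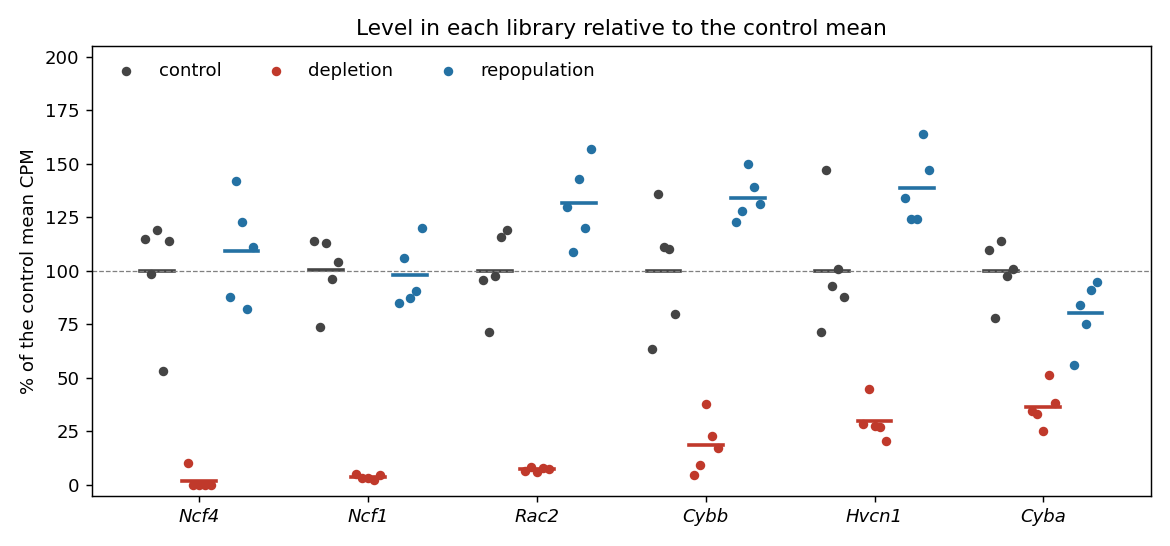
Level in each library as a percentage of the control mean (linear axis) for the 5 subunits and for Hvcn1, ordered by the mean left in depletion, with 1 point per mouse and a line at each group mean. Means left in depletion run from 2.06% for Ncf4 to 36.5% for Cyba, and repopulation means from 80.1% for Cyba to 138% for Hvcn1.

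How much was left in depletion separated only some of the subunits. The levels in depletion were 25.4 to 51.3% of the control mean for Cyba, 4.80 to 37.6% for Cybb, 6.19 to 8.36% for Rac2, 2.19 to 5.14% for Ncf1 and 0 to 10.3% for Ncf4. The ranges of Cyba, Rac2 and Ncf1 did not overlap one another, whereas Cybb met all of the others and Ncf4 met Rac2, Ncf1 and Cybb. More of Cyba was left than of any of the 18 homeostatic microglial genes, of which the highest was Aif1, an actin-binding protein, at 23.2%. Cybb stood above 15 of these 18 genes, Rac2 above 14, Ncf1 above 13 and Ncf4 above 12.

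Per kilobase of exon, the order of levels in control was Cyba (2.37 ± 0.333 CPM per kb), Ncf1 (1.70 ± 0.279), Rac2 (0.544 ± 0.104), Ncf4 (0.343 ± 0.0936) and Cybb (0.128 ± 0.0365). The ranges of Cyba and Ncf1 overlapped, as did those of Rac2 and Ncf4, while Ncf1 lay above Rac2 and Ncf4 above Cybb in every library and without overlap. These lengths count every annotated exon of a gene. In depletion Cyba (0.867 ± 0.225 CPM per kb) lay above all others and the means of the remaining 4 were 0.0644 CPM per kb or less, with overlapping neighbours.

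**Figure D3:**
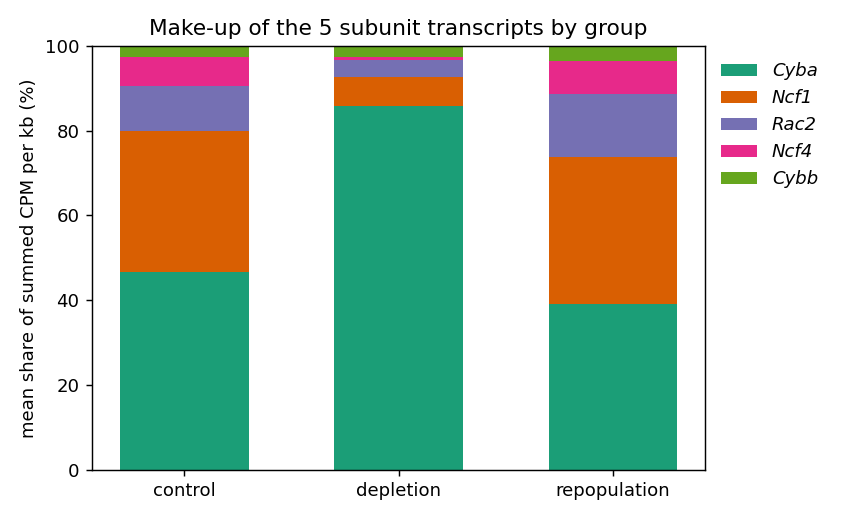
Mean share of each subunit in the summed level of the 5 transcripts (CPM per kb of exon, in percent, stacked from 0 to 100) in the 5 libraries of each group. Cyba makes up 46.6% in control, 85.9% in depletion and 39.2% in repopulation.

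The mixture of the 5 transcripts was described by shares, which were not tested. A share rises when the other subunits fall further, even if its own transcript falls. Cyba made up 45.1 to 47.4% of their summed level per kilobase in control, 81.3 to 91.7% in depletion and 33.8 to 44.8% in repopulation, with no overlap between the 3 groups. The ratio of Cyba to Ncf1 per kilobase was 1.34 to 1.48 in control, 9.40 to 32.6 in depletion and 0.921 to 1.40 in repopulation. Rac2 made up 9.30 to 12.9% in control and 11.7 to 17.9% in repopulation. Set against the median microglial gene of the same library, where the control mean is about 1, Cyba was at 0.564 to 0.901 in repopulation and 0.788 to 1.08 in control, Ncf1 at 0.837 to 1.08 and 0.745 to 1.11, Ncf4 at 0.815 to 1.31 and 0.569 to 1.19, Cybb at 1.18 to 1.43 and 0.619 to 1.38, and Rac2 at 1.00 to 1.41 and 0.722 to 1.24. The groups overlapped in each of these ratios.

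Of 14 other genes of the oxidase family and its partners, 13 had a row and 6 passed the count filter. In depletion 1 fell and 0 rose, where 8.35% of all tested genes were lower and 8.19% higher, and the median log2 fold change of the 6 was -0.02. Hvcn1, the proton channel that offsets the charge the oxidase moves, had 0.901 to 1.85, 0.258 to 0.564 and 1.56 to 2.06 CPM in control, depletion and repopulation. It fell by 1.72 (SE 0.25, edgeR adjusted p = 1.59e-05), and its later difference from control of 0.48 was not called (adjusted p = 0.0719), except without control mouse 2 (adjusted p = 0.0136) or with trends of length and GC removed (adjusted p = 0.0415). Hvcn1 shares 1574 exon bases with Tctn1 on the other strand, so its reads are less certain. Tctn1 had 19.3 to 22.5 CPM in control, 19.5 to 22.8 CPM in depletion and 22.8 to 25.8 CPM in repopulation, which did not overlap control. The part of Tctn1 in the Hvcn1 values was not tested.

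The ubiquitous Rac1 did not share the fall of Rac2. It had 248 to 264 CPM in control and 247 to 260.5 CPM in depletion, a log2 fold change of -0.02 (SE 0.03, edgeR adjusted p = 0.659). In repopulation it had 229.7 to 243 CPM, with all 5 libraries below every control, and was called lower by 0.13 on the log2 scale (SE 0.03, adjusted p = 0.00229). Rac3, the neuronal form, had 11.6 to 13.1, 10.1 to 13.3 and 10.05 to 12.1 CPM and was not called (edgeR adjusted p = 0.451 in depletion). Per kilobase, Rac1 exceeded Rac2 85.1- to 147-fold in control, 1246- to 1720-fold in depletion and 60.1- to 91.5-fold in repopulation. Rac1 shares 2309 exon bases with Daglb on the other strand, and the Rac genes are close paralogs, so a few reads could be assigned to the wrong one. The GTPase gene Rap1a, the colonic oxidase gene Nox1 and its organiser Noxo1 were not called in depletion (edgeR adjusted p = 0.946, 0.779 and 0.311) or after repopulation (0.432, 0.494 and 0.863). The other 7 genes did not pass the filter. Nox3, Nox4, Noxa1, Duox1, Duox2, Duoxa1 and Duoxa2 summed over the 5 libraries of a group to between 0 reads (Noxa1 in control) and 46 reads (Duox1 in control). Nox4, an oxidase of kidney and vessels that uses p22phox, had 28, 15 and 36 reads in control, depletion and repopulation. Its reads in depletion mice 1 to 5 were 2, 12, 0, 0 and 1, so 1 library held most of them.

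Of 20 genes that turn the oxidase on or restrain it, 11 fell and 1 rose in depletion, where 8.35% of all tested genes were lower and 8.19% higher. Their median log2 fold change was -0.23, against 0.00 over all tested genes. Dock2, a Rac exchange factor of blood cells, fell from 4.45 ± 0.334 to 0.0948 ± 0.0924 CPM (log2 fold change -5.50, edgeR adjusted p = 2.33e-15). Vav1, another exchange factor for Rac, fell from 3.47 ± 0.629 to 0.0280 ± 0.0297 CPM (-6.71, adjusted p = 1.51e-14). The kinase genes Pik3cg (-4.12) and Syk (-1.35), which act downstream of chemoattractant and Fc receptors, fell as well. After repopulation 6 of the 20 were higher and 1 lower than control, beside 13.9% and 15.2% of all tested genes. Dock2 reached 6.63 ± 0.472 CPM (0.57, edgeR adjusted p = 0.00126), and all of its repopulation libraries, at 6.07 to 7.31 CPM, lay above the control range of 4.00 to 4.88 CPM. Plcg2, a phospholipase of immune receptors, rose to 5.67 ± 0.432 from 3.67 ± 0.339 CPM (0.63, adjusted p = 0.000178), and Pik3c3, which makes the lipid that p40phox binds, was higher in both depletion (0.26) and repopulation (0.17, adjusted p = 0.00144). Arhgdia, which holds Rac in the cytosol, was lower in repopulation (-0.20, adjusted p = 3.39e-05), a call that ended with trends of length and GC removed (adjusted p = 0.337).

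**Figure D4:**
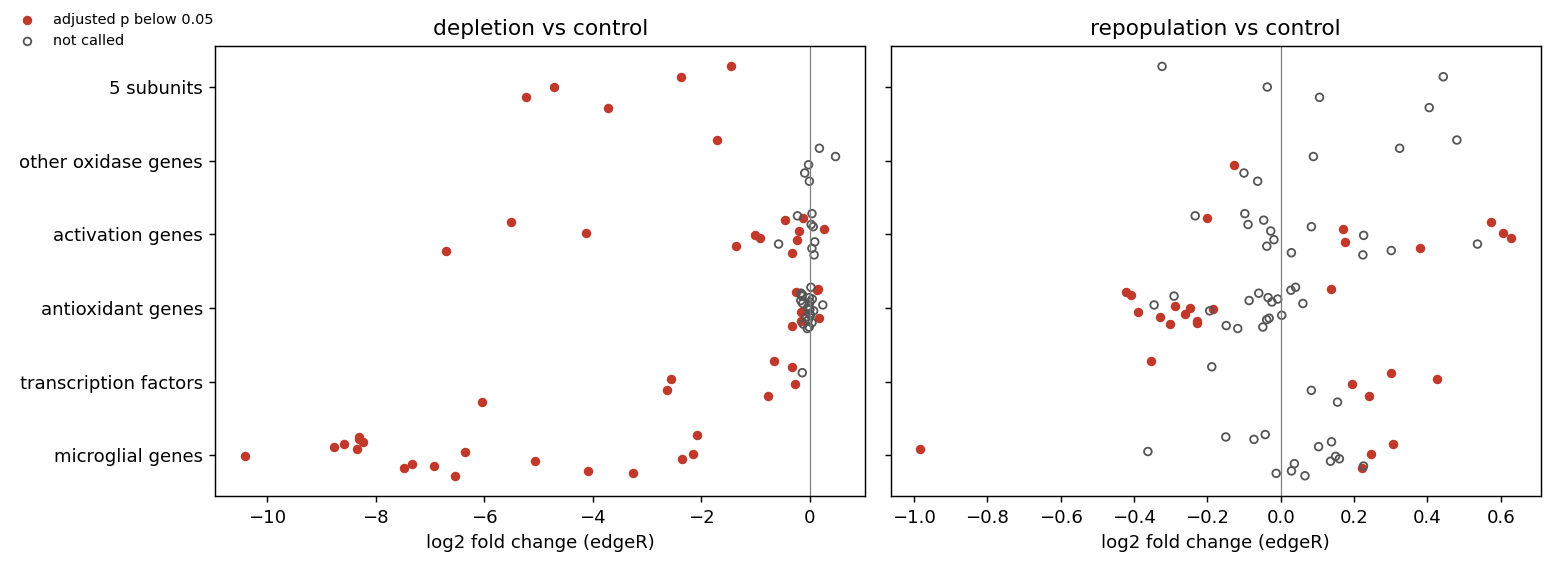
Log2 fold change (edgeR) of each tested gene by list, in depletion against control (left) and repopulation against control (right, with a narrower axis); filled points have an adjusted p below 0.05. Subunits range from -5.23 to -1.45 on the left, and on the right none is filled while 11 antioxidant genes lie filled below 0.

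A list of 29 antioxidant genes held enzymes that remove superoxide and peroxide, the glutathione and thioredoxin systems, and regulators such as Nfe2l2 and Keap1. In depletion 3 rose and 4 fell (median -0.02), near the shares of all tested genes, 8.19% and 8.35%. Once trends of length and GC were removed 1 rose and 1 fell, beside 4.74% and 6.3% of all genes. Without control mouse 1, without control mouse 3 or without depletion mouse 3, 2 fell. Gclc, of glutathione synthesis, rose from 60.7 ± 1.94 to 67.3 ± 2.71 CPM (0.15, edgeR adjusted p = 0.0144). The mitochondrial superoxide dismutase gene Sod2 rose from 122 ± 1.62 to 137 ± 4.32 CPM (0.17, adjusted p = 0.000655), the peroxidase gene Gpx1 fell by 0.25 (adjusted p = 0.00519) and Srxn1, which repairs peroxiredoxins, by 0.16 (adjusted p = 0.00623). These 3 calls ended with trends of length and GC removed (adjusted p = 0.208, 0.109 and 0.0817).

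After repopulation the same list had 11 genes below control and 1 above (median -0.15, against 0.01 over all tested genes and 15.2% of them lower and 13.9% higher). With trends of length and GC removed 12 were lower, not all of them the same genes, and 1 higher, where 12.5% of all tested genes were lower. Prdx5, a peroxiredoxin, had 76.8 to 88.8 CPM in control and 61.9 to 64.8 CPM in repopulation, without overlap (-0.39, edgeR adjusted p = 1.78e-06). Gpx4, which reduces lipid peroxides, fell from 69.7 ± 4.66 to 52.5 ± 2.89 CPM (-0.41, adjusted p = 1.63e-05), Gpx1 by 0.42 (adjusted p = 1.64e-05) and Prdx6 from 169 ± 8.87 to 141 ± 3.54 CPM (-0.26, adjusted p = 1.98e-05). With those trends removed the changes were smaller for Prdx5 (-0.25), Gpx4 (-0.23) and Gpx1 (-0.25), but not for Prdx6 (-0.27), and all stayed called. Some markers of other brain cells were called lower in the same comparison. They were 2 of 6 for cortical neurons (Slc17a7, -0.18, and Neurod6, -0.34), 1 of 4 for astrocytes (Gja1, -0.18) and 1 of 4 for oligodendrocytes (Mbp, -0.21). In these lists 0 were higher. Of 7 endothelial genes 2 were higher (Kdr, 0.34, and Tek, 0.20) and 1 lower (Cldn5, -0.25). Of 4 smooth muscle genes 1 was higher (Myh11, 0.36) and 0 lower. The Neurod6 call ended in 11 of 23 alternative fits, the Kdr call in 7 and the Cldn5 call in 5. For each, these included the fit with trends of length and GC removed. The neuron genes summed to 4505 to 5048 CPM in control and 4123 to 4610.3 CPM in repopulation, the astrocyte genes to 737 to 806 and 737 to 771 CPM, and the oligodendrocyte genes to 4446 to 4684 and 4023 to 4768 CPM. Their part in the antioxidant values was not tested.

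Of 8 transcription factors of phagocytes, 7 fell in depletion and 0 rose (median -0.71), beside 8.35% and 8.19% of all tested genes. Spi1, which encodes PU.1, a factor known to act at the promoters of several oxidase subunits, fell from 2.67 ± 0.413 to 0.0380 ± 0.0391 CPM (-6.04, edgeR adjusted p = 1.04e-13). Irf8, an interferon regulatory factor of myeloid cells, fell from 5.29 ± 0.712 to 0.899 ± 0.282 CPM (-2.56, adjusted p = 1.78e-12), Sall1, an identity factor of microglia, by 0.77 and Cebpa by 0.66. After repopulation 4 were above control and 1 below, beside 13.9% and 15.2% of all tested genes, and without control mouse 3 there were 2 above. Irf8 was higher by 0.43 (7.13 ± 0.66 CPM, edgeR adjusted p = 0.00843) and Sall1 by 0.24 (adjusted p = 0.00311), while Spi1, at 2.97 ± 0.311 CPM, was not called (adjusted p = 0.512). The higher call of Elf1 (0.30, adjusted p = 0.0189) ended without control mouse 3 (0.0722) or repopulation mouse 5 (0.0796), and with trends of length and GC removed (0.0876), as did in that last fit the lower call of Cebpa (-0.35, adjusted p = 0.00179, then 0.0911).

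Genes whose profile lay nearest to each subunit were ranked by the root mean square difference of log2 levels over the 15 libraries, each gene taken relative to its control mean, among 13515 genes at a mean of at least 1 CPM. Nearest to Ncf1 were Tmem119, a microglial membrane protein (difference 0.39 log2 units), Cd37 (0.41) and Cd300c2 (0.41). Nearest to Rac2 were the hexokinase gene Hk3 (0.31), the exchange factor gene Fgd2 (0.33) and the Fc receptor gene Fcgr1 (0.34). Nearest to Ncf4 were Il21r (0.40), Fcgr1 (0.42) and the scavenger receptor gene Stab1 (0.42). Cybb lay nearest to the phosphatase gene Inpp5d (0.33), the kinase gene Lyn (0.40) and the nucleotide receptor gene P2ry6 (0.41). Cyba lay nearest to Cd74, the invariant chain of MHC class II (0.31), Gpsm3 (0.34) and Rnase4 (0.35). Among the subunits themselves, Ncf4 and Rac2 lay closest (0.48), and Cyba was closest to Cybb (0.78). Levels here add a prior count of 2 before the log, which lifts values near 0. With 0.5 instead, the mean log2 level in depletion moved from -3.67 to -5.40 for Ncf4 and from -2.41 to -2.94 for Cybb. It moved from -2.39 to -2.84 for Rac2 and from -1.75 to -2.04 for Ncf1. The distances were not recomputed with 0.5. Those of Cybb, Ncf1, Ncf4 and Rac2, at 0 to 9 reads in depletion, hold for this prior only. The same limit covers which subunits lay closest to each other.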

How the data were processed

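Bulk RNA sequencing of cortex from 15 mice was analysed. The authors deposited unnormalized whole-number counts, with 1 row per gene symbol. The submitters' processing notes name mm10 as the build and list STAR, FastQC, MultiQC, DESeq and DESeq2 without roles. Which program counted reads, on which annotation and whether by strand is not stated in the labels. Columns were matched to labels by group and mouse number.

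Counts were tested with edgeR 4.0.16 (R 4.3.3): filterByExpr (18369 genes), TMM scaling, robust quasi-likelihood F test over all 15 libraries, Benjamini-Hochberg over all tested genes, threshold 0.05. SE is the log2 fold change divided by the root of F. The fit was tested on simulated data. Alternatives were DESeq2 1.42.0, 2 other scalings, 2 other filters, 2-group fits, a replicate block, each library left out and smooth trends of length and GC taken out per library (available for 97.8% of tested genes). Coordinates, exon lengths and overlaps came from GENCODE release 21 for mouse (GRCm38), start-site sequences from RefSeq (GRCm38.p6). Lists were described by counts and medians only. Members and lists were chosen with earlier results of these data known. Of each other list, up to 4 called genes with the smallest adjusted p per comparison with control could be named, and of the other oxidase genes all with a row; the nearest 3 profiles per subunit left out predicted genes. The list entry Cybc1 had no row under that symbol. One further oxidase gene is not reported here. Within groups, no libraries were identical and counts differed by more than sampling noise (chi-square 2.53 to 9.95 per degree of freedom).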

Additional observations from a re-analysis of the deposited data

Results flagged for a closer look

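One value among the 15 sets of 5 libraries (5 subunits in 3 groups) stood far from the rest of its group. Ncf4 was at 0.0712 CPM in depletion mouse 1, from 2 reads, against 0 reads in the other 4 depletion libraries. The threshold for such a gap is passed by chance in about 1 of 20 groups of normally spread values, a rate that does not hold here, since any reads in 1 library beside 0 in the other 4 pass it.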

How the results depend on the processing

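Each subunit's log2 fold change was refitted under 22 or 23 alternatives per comparison. All 5 stayed lower in depletion and higher in repopulation than in depletion, and past the threshold, in every fit that tested them. With at least 1 CPM in at least 5 libraries required, Cybb and Ncf4 were not tested, so 3 subunits were called lower in depletion, 3 higher in repopulation than in depletion, and 1 (Rac2) higher in repopulation than in control. Rac2 was also the 1 subunit higher than control once trends of length and GC were removed, and leaving out single libraries gave 0 to 1. Against control after repopulation, neither Ncf1 nor Ncf4 was called in any fit, and their sign was not stable. Ncf1 gave 0.0331 with trends of length and GC removed and, with single libraries left out, -0.13 to 0.0157. Ncf4 gave -0.0376 to 0.19 with single libraries left out. The fitted change of Ncf4 ran from -7.38 to -4.96 in depletion and from 5.06 to 7.48 in repopulation against depletion. Over all genes, 870 rather than 1505 were higher in depletion when trends of length and GC were removed. The cause was not tested. Mouse numbers did not pair the libraries (correlations of same-numbered deviations -0.131 to 0.103, over 0.1 in 1 of 15 pairs, and 0 libraries were closest to their own number in both other groups). The replicate block gave 5 lower subunits, and 1456 lower and 1376 higher genes in depletion, and changed no subunit's call. Depth limits Cybb, Ncf1, Ncf4 and Rac2 in depletion, at 0 to 9 reads per library. A prior count of 0.5 moved their mean log2 levels there from -2.41 to -2.94 (Cybb), -1.75 to -2.04 (Ncf1), -3.67 to -5.40 (Ncf4) and -2.39 to -2.84 (Rac2).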
